A study of Mus musculus with 4 samples.

Results

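The fragile X protein FMRP, its paralogs FXR1 and FXR2, and the partner proteins CYFIP1, CYFIP2, NUFIP1 and NUFIP2 are encoded by 7 genes, which were read out of 15733 listed protein-coding genes in mouse spermatocytes. The genes were found by symbol (Fmr1, Fxr1, Fxr2, Cyfip1, Cyfip2, Nufip1 and Nufip2). Fmr1 was chosen by its very large rise in counts in the comparison described here, so its values are given as a description with no test. The other 6 were picked as its autosomal relatives and partners.

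Suspensions of single testicular cells from mice were held ex vivo for 12 h with BMH21, a DNA-intercalating inhibitor of RNA polymerase I, at 2.5 µM, or with DMSO (mock). Spermatocytes in pachytene, the stage of male meiosis at which paired autosomes recombine and most of the X and Y is silent, were then sorted by Hoechst staining. The mRNA of 2 mock and 2 BMH21 samples, called biological replicates in the labels, was sequenced to 30964370 to 41548269 counts per library over the listed genes. Nothing says which animals each replicate came from, so p-values measure the spread between these samples only. The labels used here give no strain, age or genotype of the mice.

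FMRP is an RNA-binding protein that holds back the translation of many mRNAs, and its loss causes fragile X syndrome, which includes enlarged testes. FXR1 and FXR2 share its RNA-binding KH domains, and FXR1 is needed in spermatids for the translation of stored mRNAs. CYFIP1 and CYFIP2 bind FMRP and are also subunits of the WAVE complex, which turns Rac1 signals into actin branching, and CYFIP1 also binds the cap-binding protein eIF4E. NUFIP1 is a nuclear FMRP-binding protein that helps to assemble box C/D snoRNPs, the particles that guide methylation of ribosomal RNA, and NUFIP2 is an FMRP-binding protein found mostly in the cytoplasm.

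Because the members are relatives, the sequences bear on whether reads of one could be counted for another. The coding stretch around the longest run shared by Fmr1 and Fxr1 is shown first, 60 bases each from GENCODE M21 transcripts (GRCm38), with the shared run in capitals. It lies in 1 exon of each gene, at chrX:68712237-68712296 in Fmr1 and at chr3:34061834-34061893 in Fxr1, on the plus strand in both.
Fmr1: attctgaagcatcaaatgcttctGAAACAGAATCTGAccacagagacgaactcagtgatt
Fxr1: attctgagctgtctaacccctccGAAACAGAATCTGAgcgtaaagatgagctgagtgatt
The run was 14 bases long. Fmr1 and Fxr2 also shared at most 14 coding bases in a row, Fxr1 and Fxr2 20 bases. The longest run among the pairs compared, 24 bases, was in Cyfip1 (chr7:55887835-55887894, plus strand) and Cyfip2 (chr11:46270597-46270656, minus strand), again within 1 exon each.
Cyfip1: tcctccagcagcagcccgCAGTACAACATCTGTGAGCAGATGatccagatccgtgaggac
Cyfip2: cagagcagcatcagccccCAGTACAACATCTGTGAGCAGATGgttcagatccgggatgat
In windows of 50 bases, the transcript with the longest coding sequence of Fmr1, Fxr2, Cyfip2, Nufip1 and Nufip2 had 0 windows that matched a transcript of another annotated gene on either strand. Fxr1 had 122 such windows of 2410 (5.06%), with Dnajc19 on the opposite strand and the annotated gene Gm17795. Cyfip1 had 1366 of 6391 (21.4%), most of them with Nipa2, whose exons overlap it on the opposite strand over 1316 bases. Only 1 transcript per gene was scanned, of 4199 bases for Fmr1 and 2318 for Nufip2. The union of their annotated exons holds 8966 and 5792 bases. Exon bases outside the scanned transcripts were not searched, and Fmr1 shares 72 exon bases with the annotated gene Gm27838 on the same strand. The sources used here do not say whether strand was used in counting, which leaves the counts of Cyfip1 in particular uncertain.

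The promoter of Fmr1 is shown because its mean level per kb of exon was the lowest of the 7 in mock. The mock libraries of Fmr1 overlapped those of Cyfip2, which was lower per kb of the longest transcript. After BMH21 the level of Fmr1 per kb of exon lay near those of Fxr2 and Nufip2. The Fxr1 and Fxr2 promoters are set beside that of Fmr1. The RefSeq table (GRCm38.p6) held a promoter for 6 of the 7 genes; Cyfip1 was not matched. The windows printed run from 250 bases before the annotated RefSeq start to 30 bases after it. For Fmr1, with 2 RefSeq starts, the one nearest to the GENCODE start was used, at a distance of 0 bases. The distance was 136 bases for Fxr1, 19 for Fxr2, 501 for Cyfip2, 0 for Nufip1 and 16 for Nufip2, so the windows are not placed alike. Capitals mark matches, on either strand, to CACGTG (an E-box) and GGGCGG (a GC box of the kind bound by SP1). Matches to one did not overlap matches to the other in the windows printed. Over the 32851 gene starts of the table, windows of the same length held CACGTG in 6.79% and GGGCGG in 34.7%. The Fmr1 window is chrX:68678291-68678570, the Fxr1 window chr3:34019829-34020108 and the Fxr2 window chr11:69632721-69633000, all on the plus strand.
Fmr1: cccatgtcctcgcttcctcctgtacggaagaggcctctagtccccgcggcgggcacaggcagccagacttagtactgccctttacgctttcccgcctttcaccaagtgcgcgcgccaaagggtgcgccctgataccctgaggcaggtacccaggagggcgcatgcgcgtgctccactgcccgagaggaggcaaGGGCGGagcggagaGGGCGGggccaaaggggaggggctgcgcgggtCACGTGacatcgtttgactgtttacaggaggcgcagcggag
Fxr1: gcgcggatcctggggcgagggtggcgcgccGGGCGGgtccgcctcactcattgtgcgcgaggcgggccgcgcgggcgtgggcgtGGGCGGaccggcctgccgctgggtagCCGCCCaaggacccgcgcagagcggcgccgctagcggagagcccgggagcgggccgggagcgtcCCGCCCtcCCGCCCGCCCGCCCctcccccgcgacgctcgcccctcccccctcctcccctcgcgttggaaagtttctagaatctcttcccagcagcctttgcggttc
Fxr2: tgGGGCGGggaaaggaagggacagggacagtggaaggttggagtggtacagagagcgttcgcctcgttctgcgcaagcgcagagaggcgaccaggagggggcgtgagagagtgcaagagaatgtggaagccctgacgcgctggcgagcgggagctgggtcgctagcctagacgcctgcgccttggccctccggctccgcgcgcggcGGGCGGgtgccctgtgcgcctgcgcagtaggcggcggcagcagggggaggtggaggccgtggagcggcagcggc
In the Fmr1 window the E-box began at -11 from the start, and GC boxes began at -57 and -43. The windows of the other 5 matched members did not hold CACGTG, while Fxr1 had 7 GC boxes, some of them overlapping, and Fxr2 had 2. All of these are matches of letters in a window and not measured sites. Each of the 3 windows printed was rich in CpG, with 24 CpGs in Fmr1, 41 in Fxr1 and 29 in Fxr2. Over all gene starts the median was 6, with quartiles of 2 and 19. The trait was not particular to these 3 genes: the windows of Cyfip2, Nufip1 and Nufip2 held 23, 19 and 24 CpGs.

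The sorted cells carried the mRNAs of pachytene cells. The 14 pachytene markers summed to between 8734 and 9191 CPM (counts scaled to library size with TMM factors) in the 4 libraries, led by the lactate dehydrogenase gene Ldhc. Its mean was 4375 ± 110 CPM in mock against 4610 ± 106 CPM after BMH21 (SD, n = 2 each). Within that list edgeR called 5 genes higher (35.7%) and 6 lower (42.9%), beside 16.5% and 12.5% of all tested genes. Among them were the chromosome axis gene Sycp3 (124.9 to 171.8 CPM, log2 fold change 0.46) and the piRNA pathway gene Piwil1 (772 to 692 CPM, -0.16), both picked as examples with their values known. The 13 spermatid markers summed to 2565 to 2608 CPM in mock and 2583 to 2605 CPM in BMH21, most of it Odf2 (1983 ± 21.9 and 1986 ± 0.817 CPM). Spermatogonial markers summed to 58.3 to 58.8 CPM in mock and 56.3 to 59.2 CPM in BMH21, with 11 of 12 listed and Id4 the most abundant (38.4 ± 1.11 and 35.2 ± 1.43 CPM). That sum held calls in both directions, 1 higher (12.5%) and 2 lower (25%) of 8 tested, beside 16.5% and 12.5% of all tested genes. The called genes are named here after their values were seen. Sohlh2, a transcription factor gene of differentiating spermatogonia, had 22 and 20 counts in mock and 141 and 259 counts in BMH21 (log2 fold change 3.28, edgeR adjusted p = 6.78e-15). Zbtb16 (-0.95, edgeR adjusted p = 0.00550) and Kit (-0.58, edgeR adjusted p = 0.0424) were lower. DESeq2 called 1 of the 8 higher and only 1 lower. The part of spermatogonia in the results was not tested. Sertoli markers reached at most 5.41 CPM in any library, with Amhr2 the most abundant (2.53 ± 0.272 CPM in mock); Sox9, Wt1, Gata4, Rhox5, Cldn11 and Fshr were not among the listed genes. Leydig markers summed to 9.13 to 9.60 CPM in mock and 6.55 to 7.29 CPM in BMH21, with 4 of 6 listed. They were mostly Star (8.97 ± 0.0574 CPM in mock), which was called lower (-0.50, edgeR adjusted p = 0.00785). Insl3, the other tested Leydig marker, had 5 and 11 counts in mock and 12 and 21 counts in BMH21 (1.03, edgeR adjusted p = 0.337). Of these 2, 1 was thus called lower (50%) and 0 higher, beside 12.5% and 16.5% of all tested genes. Macrophage markers (6 of 7 listed, mostly Csf1r at 5.03 ± 1.12 CPM in mock) summed to at most 8.26 CPM, and myoid and endothelial markers (6 of 6, mostly Tagln at 4.41 ± 0.576 CPM in mock) to at most 8.33 CPM. In bulk samples such as these, a change in the number of cells of a type and a change in RNA per cell cannot be told apart.

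Among the 7 genes, Fmr1 stood apart. It was barely present in mock and abundant after BMH21, whereas the 6 autosomal genes each differed by less than 1.5-fold between the group means. Fxr1, the most abundant member, rose by 1.10-fold and Nufip2 by 1.17-fold. Fxr2 was not called, and neither were the weakly expressed Cyfip1, Cyfip2 and Nufip1. All 7 genes passed the filter on low counts, and the lowest count of any of them in a mock library was 56, so none passed through the BMH21 libraries alone.

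**Figure D1:**
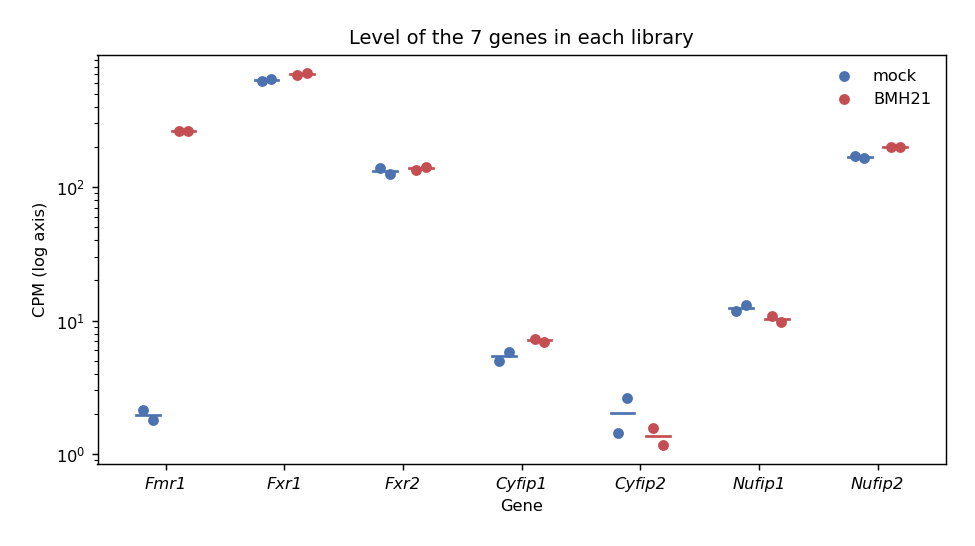
Level of each gene in CPM (log axis) in the 2 mock (blue) and 2 BMH21 (red) libraries, with a bar at each group mean. Fmr1 moves from 1.97 to 264 CPM, while the other 6 genes stay near their mock level.

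Fmr1 (plus strand of chromosome X, GRCm38 positions 68678541 to 68717963, ENSMUSG00000000838.18) had 90 and 56 counts in the mock libraries and 8779 and 9765 counts in the BMH21 libraries. In CPM these were 2.15 and 1.79 in mock and 265 and 264 in BMH21. The mock libraries thus lay close together and far below the BMH21 libraries. The exact Poisson 95% intervals ran from 1.57 to 2.87 and from 1.19 to 2.59 CPM in mock, and from 257 to 273 and from 256 to 271 CPM in BMH21. They cover counting error only and take 2 counts as 1 sequenced fragment, because 76.6% of the nonzero counts up to 20 in the table were even. The ratio of a BMH21 to a mock library ran from 123 to 148 over the 4 pairs of libraries, and the fitted log2 fold change was 7.05. Its precision is limited by the 2 mock values. A predicted small RNA gene, Gm27838, overlaps 72 bases of the Fmr1 exons on the same strand.

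Fmr1 was high among X-linked genes, though not the top one. Of 343 X-linked genes tested, of which 251 (73.2%) were called higher, Fmr1 had the 21st largest log2 fold change. The X-linked median was 4.19, with quartiles of 0.96 and 5.70. Fmr1 ranked 45th by CPM in mock, where the X-linked median was 0.438 CPM, and 6th in BMH21, where it was 4.01 CPM. Ranks by CPM do not correct for gene length. Per kb of annotated exon, among 336 X-linked genes with an annotated length, Fmr1 ranked 160th in mock and 31st in BMH21. The filter counted the BMH21 libraries too, so these X-linked values cover only the genes that passed it.

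**Figure D2:**
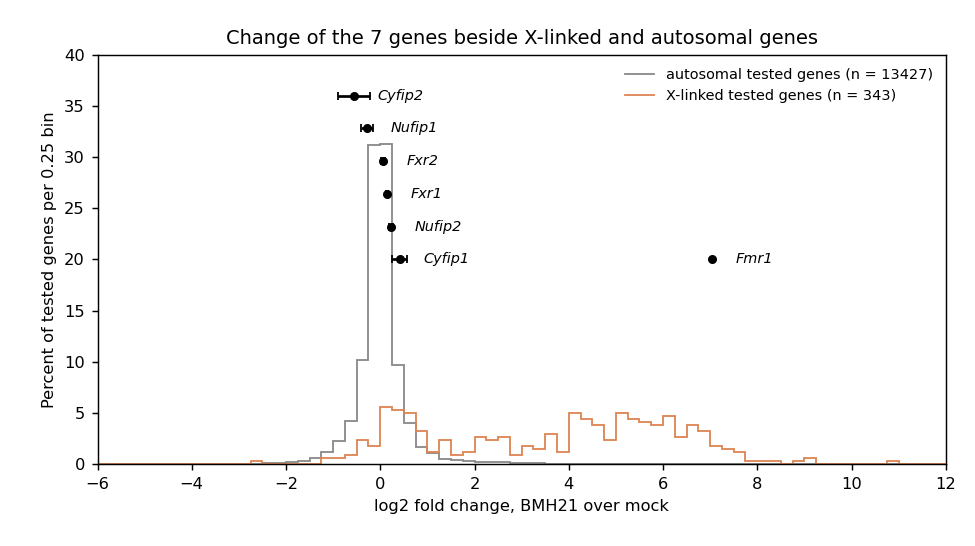
Log2 fold change of BMH21 over mock for the 7 genes (black points; bars are SE, not drawn for Fmr1; their height on the plot has no meaning) above histograms of 13427 autosomal (grey) and 343 X-linked (orange) tested genes, as percent of genes per bin of 0.25. Fmr1 at 7.05 lies in the upper part of the X-linked values, and the other 6 lie between -0.56 and 0.41.

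The genes closest to Fmr1 in level and pattern were other X-linked genes. By Euclidean distance of log2(CPM + 0.5) over the 4 libraries, the nearest of all tested genes was Xk, which encodes a membrane protein of the XK family, at a distance of 0.343. It had 1.84 and 1.92 CPM in mock and 231 and 229 CPM in BMH21. The next were Pwwp3b (0.818), Dcaf8l (0.908), the germline Polycomb gene Scml2 (0.950) and Suv39h1, which encodes a histone H3 lysine methyltransferase (0.958). All 5 lay on the X chromosome, with 1.88 to 3.24 CPM on average in mock and 171 to 308 CPM in BMH21. The distance used the same values by which Fmr1 was picked, so this is a description. The largest log2 fold change of an autosomal tested gene was 6.24, so few autosomal genes could lie near Fmr1. An annotated antisense gene overlaps 767 exon bases of Suv39h1.

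The listed genes next to Fmr1 on the X stayed low. Only 3 others start within 1 Mb of it. Fmr1nb, the testis-expressed neighbour 83.3 kb away, had 2 and 8 counts in mock and 8 and 14 counts in BMH21, with overlapping groups, and did not pass the filter. Styx-ps, 143 kb away, had 3.48 and 3.33 CPM in mock and 3.50 and 4.37 CPM in BMH21, with a log2 fold change of 0.21 ± 0.22 (SE, n = 2 each) and an edgeR adjusted p of 0.533. It is named as a pseudogene of Styx, and its counts are uncertain for that reason. 4933436I01Rik, on the other side at -757 kb, had 18 and 22 counts in mock and 26 and 32 counts in BMH21 (log2 fold change 0.56, edgeR adjusted p = 0.508). Within 5 Mb there were 28 other listed genes. Of these, 20 were tested and 13 passed as higher, beside 73.2% of the X-linked genes tested and 16.5% of all tested genes. The 20 had a median log2 fold change of 3.90, beside the 4.19 of all X-linked genes tested. Because the filter counted the BMH21 libraries too, the 13 and both medians cover only genes that passed it. Mtmr1, for example, averaged 0.0878 CPM in mock and 15.1 CPM in BMH21.

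**Figure D3:**
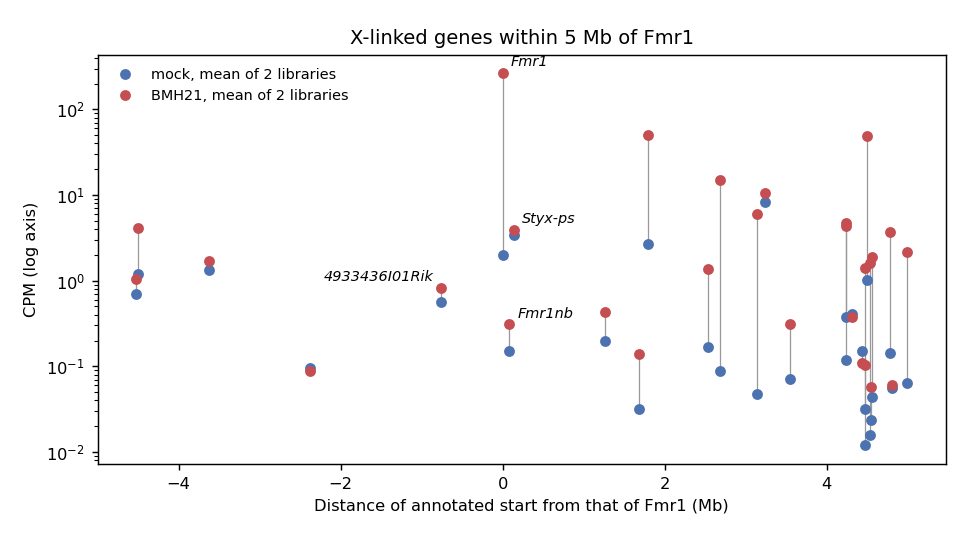
Mean CPM (log axis) in mock (blue) and BMH21 (red) of the listed X-linked genes whose annotated start lies within 5 Mb of that of Fmr1, against the distance of the starts in Mb; a grey line joins the values of each gene. The 3 genes within 1 Mb stay below 4 CPM in BMH21, while Fmr1 reaches 264 CPM.

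Turning to the paralogs, Fxr1 (ENSMUSG00000027680.16, chromosome 3, 34019943 to 34070322, plus strand) had 627 and 647 CPM in mock, against 695 and 713 CPM after BMH21. Both BMH21 libraries lay above both mock libraries. The log2 fold change was 0.14 ± 0.02 (SE, n = 2 each), with an adjusted p of 1.58e-06 in edgeR's quasi-likelihood test (Benjamini-Hochberg over 13793 tested genes). With upper quartile scaling it read 0.10 (edgeR adjusted p = 0.000692), and over all alternatives run it ranged from 0.10 to 0.17. Dnajc19, a mitochondrial co-chaperone gene whose exons overlap those of Fxr1 on the opposite strand over 178 bases, had 119 and 122 CPM in mock and 130 and 140 CPM in BMH21 (log2 fold change 0.17, edgeR adjusted p = 0.00144; 0.11 and 0.0792 without BMH21 replicate 2). The part of the overlap in the Fxr1 value was not tested.

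Fxr2 (ENSMUSG00000018765.7, chromosome 11, 69632990 to 69653297, plus strand) had 139 and 126 CPM in mock, against 134 and 142 CPM after BMH21. The groups overlapped. Its log2 fold change was 0.06 ± 0.04 (SE, n = 2 each; edgeR adjusted p = 0.303), with a 95% interval from -0.02 to 0.15. It read 0.14 without mock replicate 1 (adjusted p = 0.0525) and -0.0008 without mock replicate 2. Per kb, Fxr1 exceeded Fxr2 by 2.60 and 2.96 times in mock and by 2.98 and 2.88 times in BMH21 (exact permutation test, two-sided p = 0.667). With the longest transcript as the length, these ratios were 4.43 and 5.04 in mock and 5.07 and 4.91 in BMH21. The permutation test of 2 against 2 libraries cannot go below 0.333, so it could not tell whether the ratio changed.

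Levels of the FMRP family can be compared between genes only per length. Per kb of annotated exon (the union over transcripts), mock cells had 97.2 ± 2.20 CPM of Fxr1, 35.1 ± 2.42 of Fxr2 and 0.220 ± 0.0278 of Fmr1 (SD, n = 2 each). In BMH21 these levels were 107 ± 1.94, 36.7 ± 1.53 and 29.5 ± 0.117. Fmr1 thus made up 0.166% ± 0.0207 of the summed level of the family in mock, against 17.0% ± 0.395 after BMH21 (SD, n = 2 each). Over the same groups the share of Fxr1 went from 73.4% ± 1.80 to 61.9% ± 0.0798, and that of Fxr2 from 26.5% ± 1.77 to 21.1% ± 0.475. The sum itself was 132.5 ± 0.2499 CPM per kb in mock and 173.5 ± 3.35 in BMH21, a 1.31-fold difference. Of the difference of 41.0 CPM per kb, Fmr1 made up 29.3, Fxr1 10.2 and Fxr2 1.59. Because Fmr1 was chosen for its rise, these sums and shares are a description. They depend on the length used: per kb of the longest transcript the share of Fxr2 was 17.5% in mock and 13.8% in BMH21, and the sum was 256.6 and 340.2 CPM per kb.

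**Figure D4:**
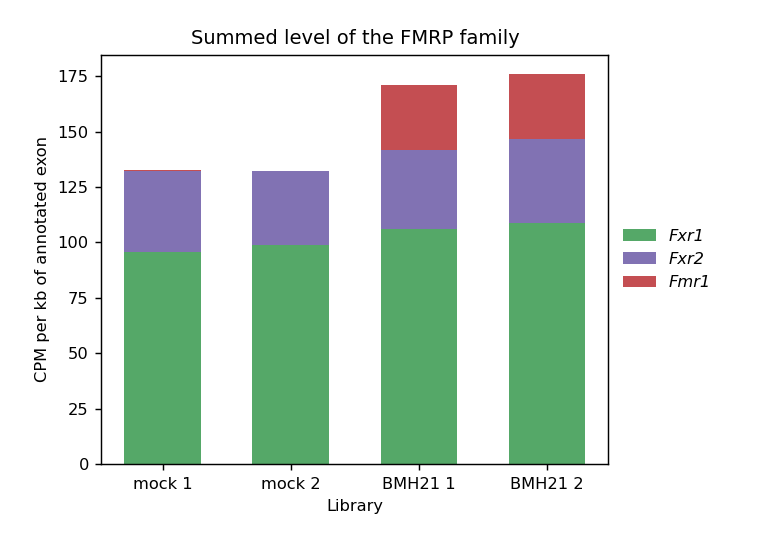
Summed level of Fxr1 (green), Fxr2 (purple) and Fmr1 (red) in each library, in CPM per kb of annotated exon. Fmr1 is too low to see clearly in the 2 mock libraries and makes up 17.3% and 16.7% of the sum in the 2 BMH21 libraries.

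The order of the 7 genes changed at one place. In mock, per kb of annotated exon, it was Fxr1, Fxr2, Nufip2, Nufip1 (3.12 ± 0.204), Cyfip1 (0.452 ± 0.0513), Cyfip2 (0.285 ± 0.119) and Fmr1. Cyfip2 and Fmr1 overlapped, and the other neighbours in the order did not. In BMH21 Fmr1 stood at place 4, below Nufip2 (34.2 ± 0.0249) and above Nufip1 (2.58 ± 0.179), and no neighbours overlapped. The place of Fmr1 depended on the length used. Per kb of the longest annotated transcript, Fmr1 was at 59.9 ± 0.237 CPM in BMH21, above Fxr2 (46.8 ± 1.96) and below Fxr1 (234 ± 4.21), and in mock it was at 0.446 ± 0.0566, above Cyfip2 (0.304 ± 0.127).

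The CYFIP genes were weak in these cells. Cyfip1 (ENSMUSG00000030447.16, chromosome 7, 55841745 to 55932602, plus strand) had 4.96 and 5.82 CPM in mock, against 7.34 and 6.94 CPM after BMH21. The groups did not overlap, but the gene was not called, with a log2 fold change of 0.41 ± 0.17 (SE, n = 2 each), a 95% interval from 0.07 to 0.75, and an edgeR adjusted p of 0.0579. The call depended on the setting: Cyfip1 passed without mock replicate 2 (0.53, adjusted p = 0.0478) and when only genes of at least 5 CPM on average were tested (0.41, adjusted p = 0.0489). Without mock replicate 1 the adjusted p was 0.347 (0.29), without BMH21 replicate 1 it was 0.210, and in DESeq2 0.186. Nipa2, a magnesium transporter gene on the opposite strand with overlapping exons, rose, from 17.6 and 20.8 CPM in mock to 26.0 and 26.4 CPM in BMH21 (log2 fold change 0.45 ± 0.09 (SE, n = 2 each), edgeR adjusted p = 9.82e-05). The part of Nipa2 reads in the Cyfip1 value was not tested.

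Cyfip2 (ENSMUSG00000020340.17, chromosome 11, 46193850 to 46312859, minus strand) was the lowest per kb of the autosomal members, with 1.43 and 2.62 CPM in mock, against 1.57 and 1.16 CPM after BMH21. The groups overlapped, and the mock libraries differed from each other more than the group means did. The log2 fold change was -0.56 ± 0.35 (SE, n = 2 each; edgeR adjusted p = 0.253), and it read -0.94 without mock replicate 1 and -0.07 without mock replicate 2. Per kb, Cyfip1 exceeded Cyfip2 in all 4 libraries, by 2.06 and 1.32 times in mock and by 2.78 and 3.56 times in BMH21. Per kb of the longest transcript it did so by 3.58 and 2.29 times in mock and by 4.83 and 6.18 times in BMH21. The ratios of the groups did not overlap on either length, but an exact permutation test of 2 against 2 cannot go below the two-sided p of 0.333 that it gave on the first.

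The genes named for the NUFIP proteins, which are partners of FMRP but share at most 11 coding bases in a row, gave log2 fold changes of opposite sign, of which that of Nufip2 passed the test. Nufip2 (ENSMUSG00000037857.17, chromosome 11, 77686155 to 77741921, plus strand) had 171 and 166 CPM in mock, against 198 and 198 CPM after BMH21. Both BMH21 libraries were higher than both mock libraries, and the gene rose by 0.23 ± 0.04 on the log2 scale (SE, n = 2 each; edgeR adjusted p = 2.32e-07). Nufip1 (ENSMUSG00000022009.2, chromosome 14, 76110891 to 76137379, plus strand) had 11.8 and 12.99 CPM in mock, against 10.7 and 9.74 CPM after BMH21. The BMH21 libraries were both lower, but the gene was not called: the log2 fold change was -0.28 ± 0.13 (SE, n = 2 each; edgeR adjusted p = 0.101), with a 95% interval from -0.53 to -0.02. With upper quartile scaling Nufip1 passed the test (-0.32, adjusted p = 0.0460). The level of Nufip1 per kb was 0.101 and 0.114 of that of Nufip2 in mock and 0.0790 and 0.0717 of it in BMH21 (exact permutation test, two-sided p = 0.333, the smallest it can give).

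In all, 2 of the 6 genes other than Fmr1 were called higher and 0 lower by edgeR; DESeq2 also called 2 and 0. At an unadjusted p under 0.05 the counts were 3 and 1, where 20.6% of all tested genes were higher and 16.9% lower. At the adjusted threshold 29.1% of all tested genes were called, 16.5% higher and 12.5% lower. With upper quartile scaling that split turned, from 2282 higher and 1731 lower to 1805 higher and 2480 lower. Where autosomal genes averaged 100 CPM or more, as Fxr1, Fxr2 and Nufip2 did, 25.1% were called higher. At 1 to 20 CPM, where Cyfip1, Cyfip2 and Nufip1 lie, 11.8% were called higher and 11.1% lower. The median log2 fold change of the 6 was 0.10, beside -0.01 over 13427 autosomal genes with quartiles of -0.18 and 0.16. The groups did not overlap for 4 of the 6, beside 60.9% of all tested genes.

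The wider pathway was read through 5 lists with 78 genes, none of them X-linked among those tested. Of 74 tested, 16 (21.6%) were called higher, 12 (16.2%) lower and 46 neither, with a median log2 fold change of 0.02, beside 16.5% higher and 12.5% lower over all tested genes. With upper quartile scaling this split turned too, to 13 higher and 15 lower. Some called genes had larger log2 fold changes than any of the 6 autosomal members.

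Among 21 genes for proteins that bind FMRP or its paralogs in RNA granules or in translation control, 6 rose (28.6%), 3 fell (14.3%) and 12 were not called, with a median of 0.02, beside 16.5% higher and 12.5% lower over all tested genes. With upper quartile scaling 5 rose and 5 fell. The largest change was in Dicer1, which encodes the ribonuclease that makes miRNAs, from 1.14 and 1.15 CPM in mock to 6.49 and 7.83 CPM in BMH21 (log2 fold change 2.64 ± 0.23 (SE, n = 2 each), edgeR adjusted p = 1.92e-15). Ago1, an Argonaute gene, rose from 3.48 and 3.65 to 6.58 and 7.80 CPM (1.02, edgeR adjusted p = 7.35e-06). Another Argonaute gene of the list, Ago2, named after its values were seen, fell from a mean of 34.7 to 27.9 CPM (-0.32, edgeR adjusted p = 0.00126). Purb, which encodes a single-strand nucleic acid binding protein, rose from 58.4 and 57.4 to 90.8 and 87.3 CPM (0.62, edgeR adjusted p = 1.70e-15), with an annotated antisense gene over 285 exon bases. In Dicer1, Ago1 and Purb the BMH21 libraries lay above the mock libraries.

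Of 12 tested genes for regulators of FMRP or of the eIF4E that CYFIP1 binds, 2 rose (16.7%) and 3 fell (25%), with a median of 0.04. The shares over all tested genes were 16.5% higher and 12.5% lower. Mknk1, an eIF4E kinase gene, fell by 0.39 on the log2 scale, from 50.1 ± 1.60 to 38.1 ± 0.378 CPM (edgeR adjusted p = 3.86e-06). Fzr1, the Cdh1 activator of the ubiquitin ligase APC/C, fell by 0.19 (183 ± 4.46 to 160.5 ± 7.22 CPM). Rps6kb1, the gene of an S6 kinase that phosphorylates FMRP, rose by 0.44 (16.6 ± 0.910 to 22.5 ± 0.279 CPM). Mknk1 and Rps6kb1 overlap other annotated genes on the opposite strand over 260 and 155 exon bases, and Fzr1 over 4.

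Of 18 genes for the WAVE complex, its activator Rac1 and the Arp2/3 complex that it switches on, 4 rose (22.2%) and 1 fell (5.56%), with a median of 0.03. Over all tested genes 16.5% were called higher and 12.5% lower. Arpc4, which encodes an Arp2/3 subunit, went up by 0.47 on the log2 scale, from 17.7 ± 0.0195 to 24.7 ± 0.480 CPM (SD, n = 2 each; edgeR adjusted p = 5.21e-05). Rac1 rose from 5.43 ± 0.196 to 8.42 ± 1.11 CPM (0.64, edgeR adjusted p = 0.00126), but lost its call without BMH21 replicate 2 (0.49, adjusted p = 0.0701), and Daglb overlaps it on the opposite strand over 2309 exon bases. Wasf3, which encodes a WAVE protein, rose by 0.24 (43.2 ± 1.91 to 50.8 ± 0.372 CPM), a call not kept when mock replicate 1 was left out (0.19, adjusted p = 0.0891). Arpc4 shares 283 exon bases with Ttll3 on the same strand.

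Of 10 genes for box C/D snoRNP proteins and the factors that assemble them with NUFIP1, 2 rose (20%) and 1 fell (10%), with a median of 0.16. Of all tested genes 16.5% were called higher and 12.5% lower. With upper quartile scaling 1 of the 10 rose and 2 fell. Nop56, a core protein of these particles, rose by 0.79 on the log2 scale, from 3.25 ± 0.287 to 5.63 ± 0.405 CPM (SD, n = 2 each; edgeR adjusted p = 0.00111). It is a host of snoRNA genes, 4 of which lie within its annotated exons. The helicase genes Ruvbl1 and Ruvbl2, whose products form 1 complex, went in opposite directions. Ruvbl2 fell by 0.15 on the log2 scale (185 ± 1.15 to 166 ± 6.55 CPM, edgeR adjusted p = 0.000591), with Gys1 over 310 exon bases on the opposite strand. Ruvbl1 rose by 0.21 (34.2 ± 0.847 to 39.5 ± 2.28 CPM, edgeR adjusted p = 0.0300), a call that was lost in DESeq2 (0.21, adjusted p = 0.0942), with upper quartile scaling (0.16, adjusted p = 0.0977) and on leaving out either mock library or BMH21 replicate 2 (0.23, 0.19 and 0.15).

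Of 13 tested mRNAs often described as targets of FMRP in neurons, 2 rose (15.4%) and 4 fell (30.8%), with a median of -0.18, beside 16.5% higher and 12.5% lower over all tested genes; the counts were 2 and 4 with upper quartile scaling too. Shank1, a synaptic scaffold gene, rose from 19.6 and 15.7 CPM in mock to 35.1 and 36.8 CPM in BMH21 (log2 fold change 1.02, edgeR adjusted p = 6.00e-15), with another gene, 1700008O03Rik, over 339 exon bases on the opposite strand. Arc, which encodes a synaptic capsid-like protein and was abundant in these cells, fell from 417 and 404 to 366 and 359 CPM (-0.18, edgeR adjusted p = 2.04e-07). Dlg4, the gene of the synaptic scaffold PSD-95, fell from 16.6 and 18.5 to 11.1 and 11.8 CPM (-0.61, edgeR adjusted p = 1.60e-05). The list was drawn from work in neurons, and binding by FMRP in spermatocytes was not measured.

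**Figure D5:**
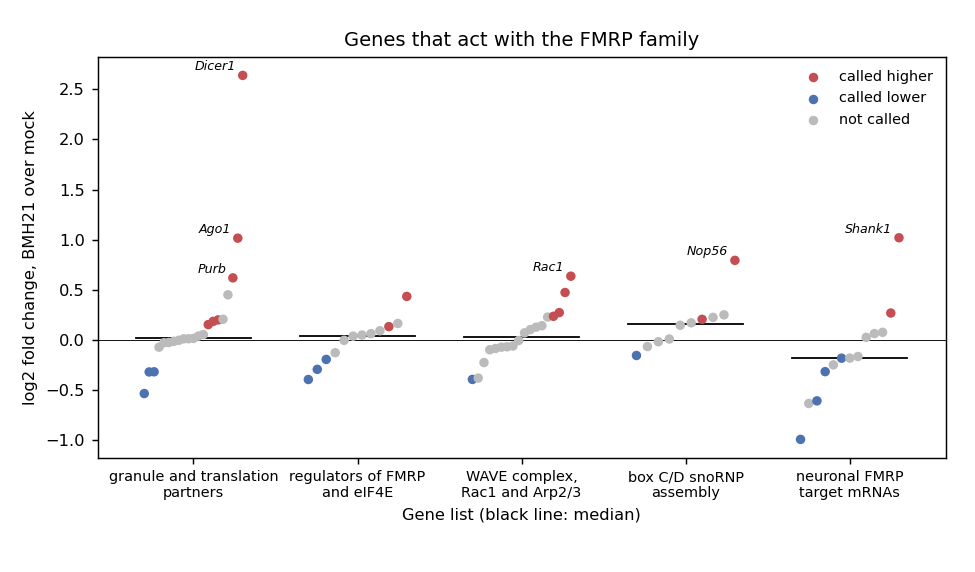
Log2 fold change of BMH21 over mock for each tested gene of the 5 lists (points in order of value within a list; red called higher, blue called lower, grey not called; black line at the median). List medians lie between -0.18 and 0.16, and Dicer1 at 2.64 is the highest point.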

How the data were processed

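Of 4 libraries, 2 per group, the authors deposited 1 table of raw read counts per gene, with no normalization, and counts divided by 1 size factor per library (signal), which were not used. The log2 fold changes, standard errors, Wald score and p-values in the table are the authors' DESeq2 output, per the file headers and the submitters' processing notes, which also name fastp, STAR, SAMtools, featureCounts and mm10. Strand setting and versions are not given in the sources used here. Of 15733 genes, 15670 matched GENCODE M21 (GRCm38) by identifier, with the same chromosome; start and end agreed for only 369, so GENCODE positions and lengths are used.

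Counts were tested with edgeR 4.0.16 (R 4.3.3): filterByExpr (minimum count 10, 13793 genes kept), TMM scaling, quasi-likelihood test on group, Benjamini-Hochberg adjustment, called under 0.05. The SE is the log2 fold change divided by the square root of F, an approximation; intervals are 95%. DESeq2 1.42.0, other scalings and filters, a replicate block and leaving out each library were alternatives. On simulated counts of this comparison (13748 genes), 25 of 50 genes changed 1.25-fold, 48 of 50 changed 1.5-fold, 46 of 50 changed 2-fold and 50 of 50 changed 4-fold were recovered, with 7 false calls among 176. The simulation gave all genes the same coefficient of variation beyond counting error (4.09%) and did not copy the excess of even counts. Recovery of weak genes in the real counts may therefore be lower. Members and lists were chosen with earlier results of these data known. Named are the 7 members, the 5 tested genes nearest to Fmr1, the listed genes within 1 Mb of it, up to 3 called genes per list by smallest p, the most abundant gene of each marker list, and Nipa2 and Dnajc19, which were added after their overlap was seen.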

Additional observations from a re-analysis of the deposited data

How the results depend on the processing

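Over the alternatives run (RLE and upper quartile scaling, DESeq2, no filter, genes of at least 5 CPM, a replicate block, and each library left out), Fxr1 and Nufip2 stayed called higher in each, and Fmr1 read 6.95 to 7.20. Cyfip1 became called higher with genes of at least 5 CPM (0.41, adjusted p = 0.0489) and without mock replicate 2 (0.53); with each library left out it ran from 0.29 to 0.53. Cyfip2 was not among the genes of at least 5 CPM. With upper quartile scaling Nufip1 became called lower (-0.32, adjusted p = 0.0460), so that 1 of the 6 members was called lower. With lengths of the longest transcript, the Fmr1 share in BMH21 was 17.6%, and the Fxr2 share moved by more (13.8% in place of 21.1%). Among 22 other named genes, 0 changed direction, and Ruvbl1 lost its call with upper quartile scaling and in DESeq2. The 22 were the named called genes of the 5 lists, the 5 genes nearest to Fmr1, Nipa2 and Dnajc19. Most were picked for their values in this same fit, so keeping a call was largely set by that choice. The marker genes and Ago2 were not among the 22.

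Differences between the replicates of the 2 groups were uncorrelated (r = 0.00964 over 7560 genes, which are not independent), and the labels do not say whether same-numbered samples share an origin. The replicate block gave 2189 genes higher and 1595 lower, against 2282 and 1731 without it, and Fxr1 had an adjusted p of 2.97e-05 with the block. With upper quartile scaling 1805 were higher and 2480 lower. DESeq2 called 1772 and 1184. Counts of 43 to 90 per library limit the values of Cyfip2 in all libraries and of Fmr1 in mock.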

Other observations

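The authors' deposited table gave Fmr1 a log2 fold change of 7.05 with a standard error of 0.13. In the authors' deposited table Fxr1 (0.14, adjusted p = 1.53e-06) and Nufip2 (0.23, adjusted p = 7.72e-07) passed an adjusted p of 0.05. Cyfip1 (0.41, adjusted p = 0.220), Nufip1 (-0.28, adjusted p = 0.283), Fxr2 (0.06, adjusted p = 0.575) and Cyfip2 (-0.56, adjusted p = 0.498) did not, in the authors' deposited table.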
